A study of Mus musculus with 19 samples.

Results

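The table of extrachromosomal circular DNA (eccDNA) per gene lists 93 genes, of 8336 in all (1.12%), whose symbols belong to the families of the kinesin, dynein and myosin motors, of tubulins and neurofilaments, and of the proteins that link the cytoskeleton to membranes and to itself: protein 4.1, talins, ankyrins, spectrins, spectraplakins, doublecortin-like kinases and stathmins. They were chosen by the start of their symbols, with earlier results of these data known, so that the number of calls among them is no independent evidence. EccDNA was purified from the cervical spinal cord of male mice, with 1 library per animal. The 9 ALS libraries came from symptomatic B6.Cg-Tg(SOD1\*G93A)1Gur/J mice, which constitutively overexpress a mutant human superoxide dismutase 1 gene (*hSOD1G93A*), and the 10 control libraries from C57BL/6J mice of the same sex and age. Motor symptoms arose at an age of 18 to 21 weeks, and mutants that did not develop them in time had been excluded. Whether the controls were littermates is not given in the labels. In both groups, linear DNA was removed from 400 ng by 7 days of exonuclease V, and rolling circle amplification (RCA) of what was left ran for 48 h. The values count DNA of a whole tissue segment, so that no cell type could be checked by marker levels, and more cells with a circle cannot be told apart from more copies of it per cell.

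Motor neurons depend on these proteins more than most cells do, because their axons are very long. Kinesins carry vesicles, mitochondria and neurofilaments along axonal microtubules toward the synapse, cytoplasmic dynein with its partner dynactin carries cargo back to the cell body, and myosins move along actin. Ankyrins, spectrins and protein 4.1 form the lattice under the axonal membrane, and mutations in several kinesin, dynactin and neurofilament genes are known causes or risk factors of motor neuron disease and of inherited neuropathies. An eccDNA from such a gene is a circularized piece of its locus and says nothing by itself about the transcript or the protein.

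The name of the gene group holds for a portion of its members. The 14 axonemal dynein heavy chains (*Dnah*) drive the beating of cilia and are not axonal motors. Of the 23 kinesin family entries, 8 belong to cargo kinesins (*Kif3b*, *Kif5b*, *Kif5c*, *Klc1*, *Kif13a*, *Kif13b*, *Kif16b* and *Kif17*), 6 are best known from cell division and 4 from cilia and flagella. *Tubb4b-ps2* is annotated as a processed pseudogene, *Tlnrd1* and *Stmnd1* are named for a domain of the family they were counted in, and *Kifbp* encodes a protein that binds kinesins. Of 19 genes of these families looked up as candidates for ties to motor neuron disease or axonal neuropathy, 10 were listed. Among them were *Nefm*, *Dync1h1*, *Kif5b*, *Kif5c*, *Klc1*, *Dst* and *Stmn2*. The other 9 were not listed and not analysed here. Every gene of the table had an eccDNA in at least 1 library, so a gene without any in the 19 libraries is not listed.

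The deposited value is log2(PpGC + 1), where the PpGC (produced per gene eccDNA) of a gene adds up the split reads on every circle overlapping it and scales them by the ratio of the longest gene's length to its own. A split read spans the junction of a circle, and a circle needed at least 2 of them to be kept. With the gene lengths of GENCODE release M21 on mm10, all 194 values above 0 of the 93 genes gave whole split reads (tolerance 0.02), so that split reads are given here beside the log2 values. The smallest value was 2 split reads, found for 42 values (21.6%, compared to 19.9% over all genes), the median was 6 and the largest 2542. A value of 0, which made up 89.0% of the values, means that no circle reached 2 split reads at this depth. Split reads on all genes, the eccDNA signal itself, ranged from 74020 to 391394 per ALS library and from 3583 to 123387 per control library, and the sequencing depth of each single library is not in the table. RCA copies single circles many times, so that no counting interval was attached to split reads.

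An eccDNA overlapped 17.8 ± 6.59 (SD, n = 9) motor and linker genes per ALS library and 3.40 ± 3.66 (SD, n = 10) per control library. The ALS libraries 1 to 9 held 25, 16, 31, 17, 13, 9, 15, 15 and 19 of them. The control libraries 1 to 10 held 12, 7, 2, 2, 1, 0, 1, 1, 4 and 4. Of the 9 ALS libraries, 8 lay above every control library, and ALS library 6 lay below control library 1. The ratio of the group means was 5.23, and 5.35 for all genes of the table (1301 ± 459 against 243.4 ± 207.9, SD). The share of a library's genes that were motor or linker genes was 1.38 ± 0.257% (SD, n = 9) in ALS and 1.39 ± 0.895% (SD, n = 10) in controls, which differed by less than either SD. The difference was 0.67 percentage points, with ALS higher, over genes in 3 or more libraries, and 0.77 on chromosomes 2 to 9. No motor or linker gene was in 3 or more controls, so they passed the first filter only with ALS libraries. The share was 9 of 694 genes (1.30%) in ALS library 6 and 12 of 723 (1.66%) in control library 1, the ALS and the control library whose loads were closest.

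**Figure D1:**
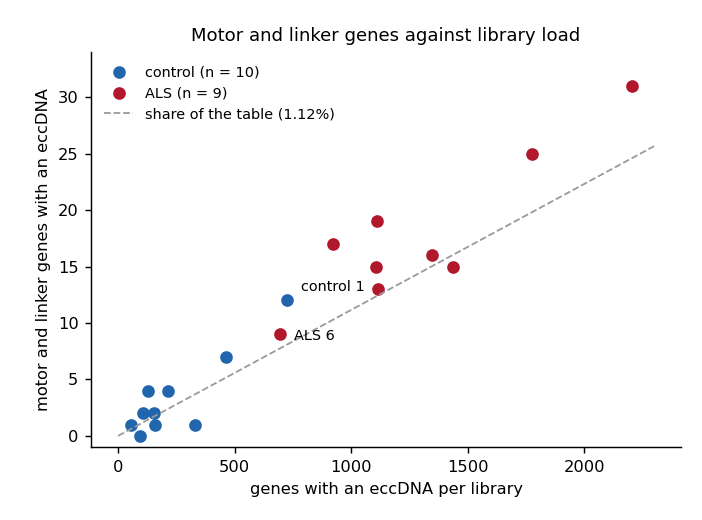
Number of motor and linker genes with an eccDNA (vertical axis) against the number of all genes with an eccDNA (horizontal axis) in each library, with ALS libraries in red and control libraries in blue. Both groups lie near the dashed line, which marks the 1.12% that these genes make up of the table, and control 1 with 723 genes lies beside ALS 6 with 694.

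For 78 of the 93 genes (83.9%, compared to 86.5% of all genes) the ALS mean exceeded the control mean. The median difference, ALS minus control, was 1.03 for the 93 genes and 1.19 for all genes. An eccDNA was present in ALS libraries only for 64 genes (68.8%, compared to 75.0% of all genes), in control libraries only for 12 (12.9%, compared to 10.9%) and in both for 17. Most genes were seen sparsely, and 52 (55.9%, compared to 66.2% of all genes) had an eccDNA in a single library. It was an ALS library for 41 of them and a control library for 11. Since listed genes have an eccDNA in at least 1 library, these 41 are listed only through ALS and could only be higher there. At the other end, 12 genes (12.9%, compared to 6.55% of all genes) had one in 3 or more ALS libraries and in no control, and 29 (31.2%, compared to 25% of all genes) had one in at least 1 control. With a difference of means above 1 and a two-sided p under 0.01 in the methods' t-test, 3 of 93 genes (3.23%) were up in ALS, beside 111 of 8336 genes (1.33%). They were *Epb41l3*, *Tln2* and *Dclk1*. The methods do not say whether the test had 1 or 2 sides, and with a one-sided p for a higher mean in ALS *Dnah3* was up as well, which made 4 of 93, beside 2.27% of all genes. No motor or linker gene was down (0 of 8336 over the table). None of them was lower in ALS with an unadjusted p under 0.05 in the methods' t-test, again 0 of 8336 over the table. None of the 93 was in 3 or more controls, and *Myo5b*, in 2 controls and no ALS library, had p = 0.221 in that test. With so few control values above 0 these genes could not pass in this direction, so no conclusion is drawn from it. None of the 93 passed after Benjamini-Hochberg adjustment over all genes (6 of 8336 genes, 0.072%). By the methods' t-test, 2 to 5 were up when any single library was left out, beside 85 to 133 of all genes. With 100 in place of 1 added to the PpGC, 0 of the 93 were up (0.108% of all genes). The differences of *Epb41l3*, *Tln2* and *Dclk1* were then 1.41, 0.57 and 0.55, in place of 5.66, 4.08 and 3.53. Without length scaling they were 2.54, 1.81 and 1.53, and 2 genes were up (0.878% of all genes). An exact permutation p under 0.05, two-sided over the 92378 ways to draw groups of these sizes, was reached by 8 genes (8.6%, compared to 3.72% of all genes), all of them higher in ALS. When the smaller one-sided p was doubled instead, 4 reached it (2.05% of all genes). When any single library was left out, 4 to 7 of the 93 reached it. The share over all genes was not computed for that setting, so this range has no background.

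The differences do not account for the load of a library. With the number of its genes with an eccDNA as a covariate in limma, the median coefficient over the 93 genes turned to -0.49, 42 genes had a positive coefficient, 2 genes were up, *Kif6* and *Kif19a* (0.408% of all genes), and *Dnah7a* was down (0.84% of all genes). Load and group are close to inseparable here, since 8 of 9 ALS libraries exceeded all controls in both.

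**Figure D2:**
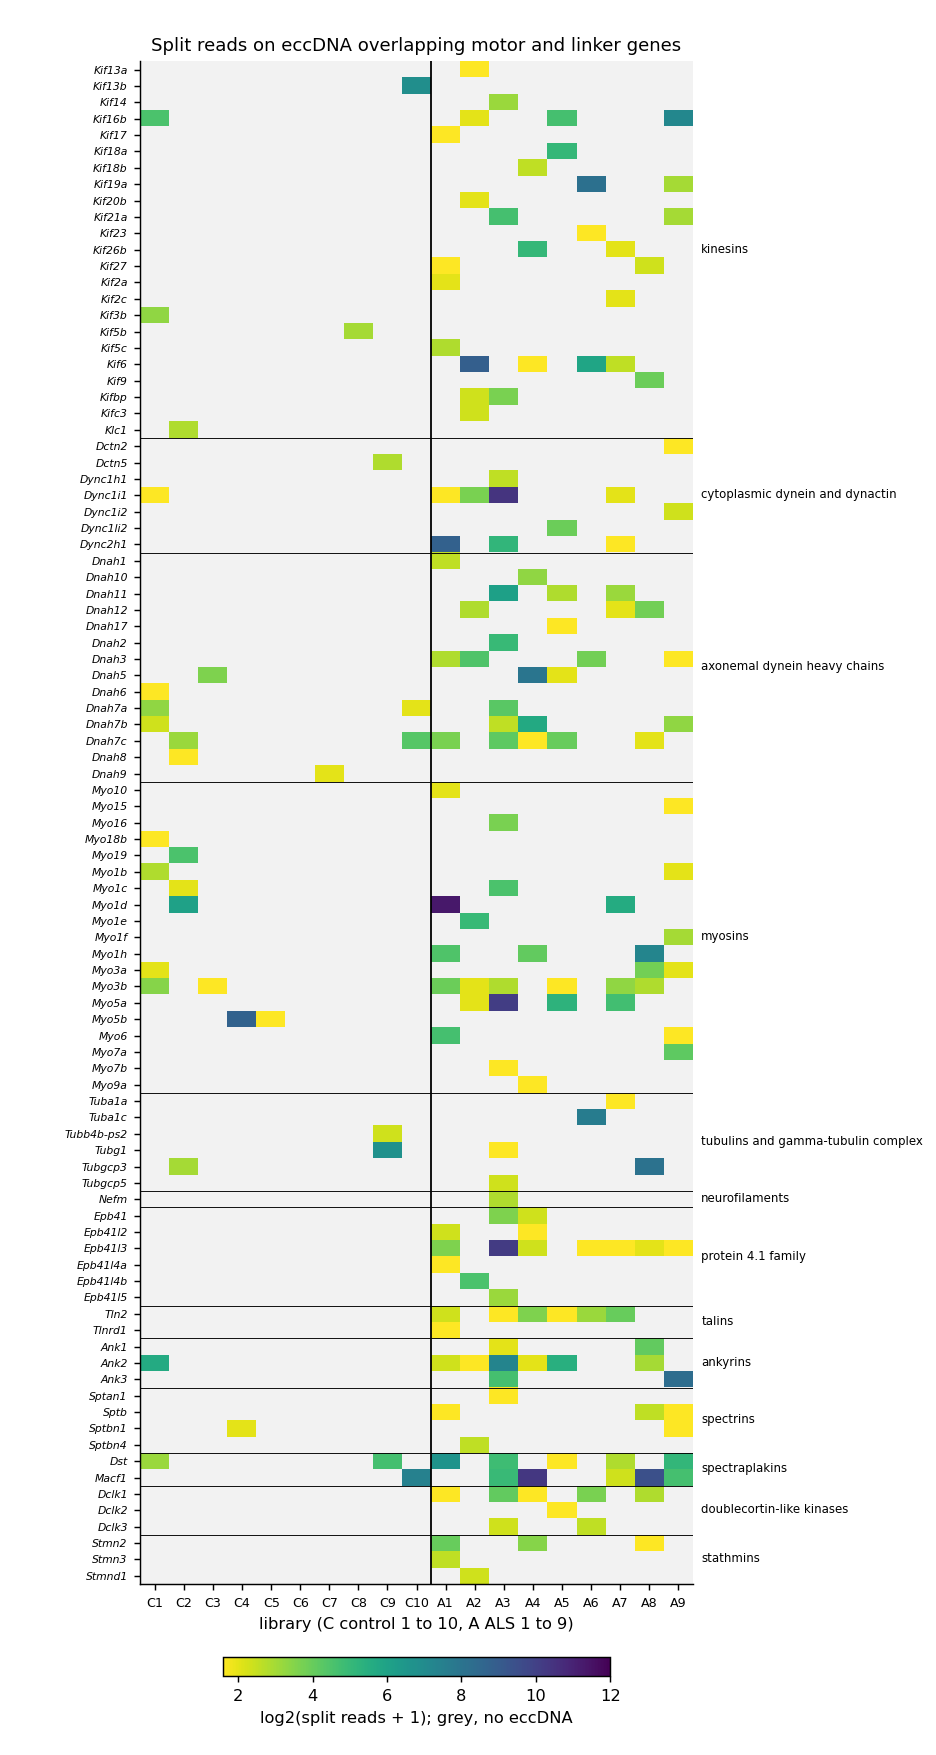
Split reads, as log2(split reads + 1), on eccDNA overlapping each of the 93 genes (rows, grouped by role) in the 10 control libraries (C1 to C10) and the 9 ALS libraries (A1 to A9), with grey where no eccDNA was found. The rows of the protein 4.1 family, talins, doublecortin-like kinases and stathmins are empty in all control libraries, and most rows hold a single coloured cell.

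The 3 genes that were up all belong to the linkers and microtubule-binding kinases. *Epb41l3* encodes a neuronal protein 4.1, which ties membrane proteins to the spectrin and actin lattice and is found beside the nodes of Ranvier. It lies on chromosome 17 at 69075683 to 69289989 (mm10, plus strand) and spans 214 kb. Its split reads were 11 in ALS library 1, 1162 in library 3, 4 in library 4, 3 in library 8 and 2 each in libraries 6, 7 and 9. ALS libraries 2 and 5 and all control libraries had none, and 5 of the 7 positive libraries lay between 2 and 4 split reads. The mean log2 PpGC was 5.66 ± 4.31 (SD, n = 9) in ALS and 0 in the 10 controls, a difference of 5.66 with a standard error of 1.36 (exact permutation p = 7.14e-04, adjusted over all genes 0.284). Without ALS library 3, which holds nearly all of its reads, the difference was 4.55.

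*Tln2* encodes talin 2, which couples integrins at cell adhesions to actin. The gene lies on chromosome 9 at 67217087 to 67559703 (mm10, minus strand) and spans 343 kb. It had 4 split reads in ALS library 1, 2 in library 3, 11 in library 4, 2 in library 5, 8 in library 6 and 15 in library 7. The other 3 ALS libraries and all controls had none, so that the groups overlap only at 0. The mean was 4.08 ± 3.21 (SD, n = 9) in ALS and 0 in controls, and the difference of 4.08 had a standard error of 1.01 (exact permutation p = 0.0031, adjusted 0.487). No library of *Tln2* stood apart from the others in the way that library 3 did for *Epb41l3*, and leaving out single libraries moved the difference between 3.64 and 4.59.

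Genes nested inside *Tln2* place some of these circles within the locus. In ALS library 5, the 2 split reads on *Tln2* were matched by 2 split reads on *Mir190a*, a microRNA gene in an intron of *Tln2* on the same strand at chr9:67236660-67236726, 323 kb from the *Tln2* start. Since a circle needs 2 split reads, both values come from a single circle that overlaps the 67 bp hairpin. The hairpin is printed with its mature arms in capitals and the mature strands with their seeds (bases 2 to 8) in capitals, 5′ to 3′, from RefSeq (GRCm38.p6), because this is where the table places a *Tln2* circle most closely:
microRNA 190a hairpin: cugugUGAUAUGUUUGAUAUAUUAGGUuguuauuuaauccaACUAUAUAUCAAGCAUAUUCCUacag
miR-190a-5p: uGAUAUGUuugauauauuaggu
miR-190a-3p: aCUAUAUAucaagcauauuccu
Because PpGC divides by gene length, these 2 split reads appear as a log2 value of 17.01 for *Mir190a* and 4.75 for *Tln2*. In ALS library 7, the 15 split reads on *Tln2* equalled those on *Gm47047*, an intronic antisense gene of 2989 bp at 67424503 to 67427491, which lies 187.8 kb from *Mir190a*. The other 4 positive libraries had 0 on both nested genes. The *Tln2* circles of libraries 5 and 7 therefore lay at different places of the locus, and neither nested gene overlaps a *Tln2* exon. Likewise, the 11 split reads on *Epb41l3* in ALS library 1 equalled those on the antisense gene *2410021H03Rik* (1847 bp, no *Epb41l3* exon), which had 0 in the other 6 positive libraries.

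*Dclk1* encodes doublecortin-like kinase 1, which binds microtubules and takes part in the transport of dense-core vesicles into dendrites. It lies on chromosome 3 at 55242364 to 55539068 (mm10, plus strand) and spans 297 kb. Its split reads were 2 in ALS library 1, 16 in library 3, 2 in library 4, 12 in library 6 and 6 in library 8, and 0 in the other 4 ALS libraries and in all controls. The mean was 3.53 ± 3.49 (SD, n = 9) in ALS, and the difference of 3.53 had a standard error of 1.10 (exact permutation p = 0.0108, adjusted 0.581). Its exact p exceeds the 0.01 that it passed in the methods' t-test, and without any of the 5 libraries that carry it that call was lost. Its paralogues were sparser. *Dclk3* had 4 and 5 split reads in ALS libraries 3 and 6, and *Dclk2* had 2 in ALS library 5.

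**Figure D3:**
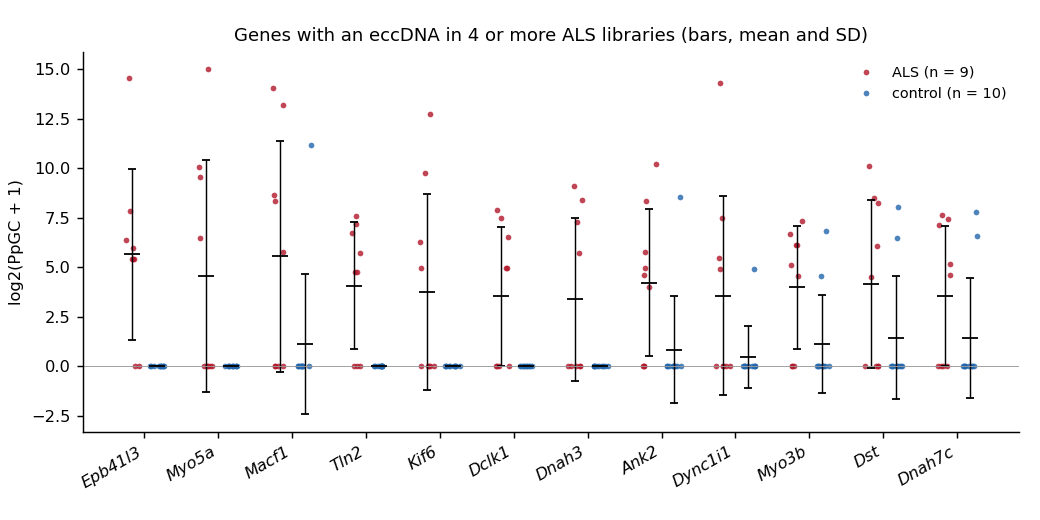
Deposited log2(PpGC + 1) of the 12 genes with an eccDNA in 4 or more ALS libraries, with a point per library (red, 9 ALS; blue, 10 control) and black bars for the mean and SD. *Epb41l3*, *Myo5a*, *Tln2*, *Kif6*, *Dclk1* and *Dnah3* lie at 0 in every control, and every gene is also at 0 in at least 2 ALS libraries.

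The libraries that carried the 3 genes overlapped. All 3 had an eccDNA in 4 ALS libraries (1, 3, 4 and 6), 2 of them in 2 libraries, 1 in 2 libraries and none in ALS library 2. The 4 libraries that held all 3 had 1775 (library 1), 2204 (library 3), 923 (library 4) and 694 (library 6) genes with an eccDNA. Library 2, which held none of the 3, had 1346. With the load as covariate in limma, the coefficient was 5.18 for *Tln2* (unadjusted p = 0.0158), 1.51 for *Dclk1* (p = 0.473) and 0.61 for *Epb41l3* (p = 0.778). Chromosomes 3, 9 and 17, on which they lie, took like shares of the genes of every ALS library, with a chi-square per degree of freedom of 0.361, 1.11 and 1.42. On 9 of the 11 chromosomes 1 and 10 to 19, which carry 50 of the 93 genes, this value was above 3. Of the placed genes with an eccDNA in an ALS library, chromosome 1 held 1.60 to 13.8% and chromosome 13 held 0.44 to 6.21%. For chromosome 2 this share was 7.65 to 9.44%. Whether values of 0 on the uneven chromosomes reflect such shares was not tested.

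Of the 20 protein 4.1, talin, ankyrin, spectrin, spectraplakin and doublecortin-like kinase genes, all 20 had a higher mean in ALS, as had 86.5% of all genes, although *Sptbn1* did so by only 0.01 and turned under several settings. With the load of each library as a covariate, the coefficients of 9 of the 20 (*Ank1*, *Ank2*, *Ank3*, *Dst*, *Epb41*, *Epb41l4a*, *Epb41l5*, *Sptan1* and *Tlnrd1*) were negative. Together they held 55 values above 0 in ALS and 5 in controls, compared to 11710 and 2434 over all genes. Of the 20, 3 were up by the methods' t-test (*Epb41l3*, *Tln2* and *Dclk1*), beside 1.33% of all genes. The 20 genes are long, with a median of 166 kb, compared to 49.3 kb for all genes placed. This grouping was made after the values were seen. The 6 protein 4.1 genes held 14 values above 0 in ALS libraries and 0 in control libraries, of which 7 came from *Epb41l3*. *Epb41* had 11 and 4 split reads in ALS libraries 3 and 4, *Epb41l2* had 4 and 2 in libraries 1 and 4, and *Epb41l4a*, *Epb41l4b* and *Epb41l5* had an eccDNA in 1 ALS library each.

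Ankyrins anchor ion channels to the spectrin lattice of the axon. *Ank2* (chromosome 3, 578 kb) had 4, 2, 155, 3, 42 and 7 split reads in ALS libraries 1, 2, 3, 4, 5 and 8, and 48 in control library 1. The difference was 3.36 with a standard error of 1.47 (exact permutation p = 0.0388, adjusted 0.581), and 4.21 without control library 1. With equal totals per library it was 2.29 (exact permutation p = 0.0903), and with load as a covariate it turned to -3.46. *Ank3*, the ankyrin of the axon initial segment, had 24 and 310 split reads in ALS libraries 3 and 9 only. Of the spectrins, *Sptb* had 2, 5 and 2 split reads in ALS libraries 1, 8 and 9, and *Sptbn1* had 2 in ALS library 9 and 3 in control library 4.

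The spectraplakins *Macf1* and *Dst* are giant proteins that crosslink actin and microtubules, and loss of *Dst* is known to cause sensory neuropathy in mice. *Macf1* had 30, 1278, 4, 693 and 24 split reads in ALS libraries 3, 4, 7, 8 and 9 and 173 in control library 10. Its difference of 4.43 had a standard error of 2.18 (exact permutation p = 0.0557), and without control library 10 it was 5.55 (exact permutation p = 0.0294). That was the highest value without any single library, and the lowest was 3.37, without ALS library 4. The largest exact permutation p without a single library was 0.141, and with equal totals per library it was 0.105. *Dst* had 99, 27, 2, 6 and 33 split reads in ALS libraries 1, 3, 5, 7 and 9, and 8 and 24 in control libraries 1 and 9. Its difference of 2.71 (standard error 1.69) did not exceed the spread between libraries (exact permutation p = 0.123). With the replicate number as a block in limma it was 2.55 (limma p = 0.0347), although replicate numbers did not pair the samples.

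**Figure D4:**
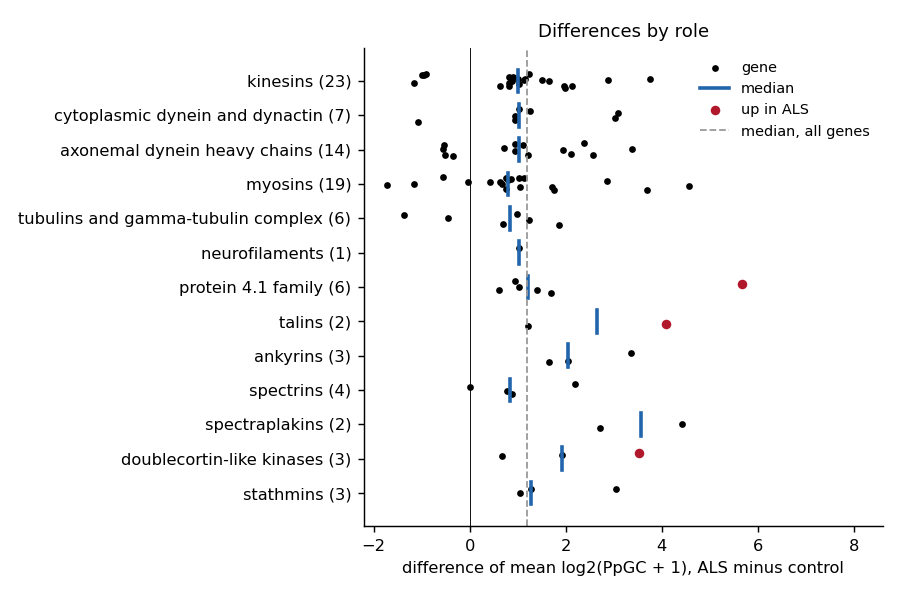
Difference of mean log2(PpGC + 1), ALS minus control, of each of the 93 genes by role, with the number of genes in parentheses, the median of each role in blue and the genes that were up in red. All 3 red genes are in the protein 4.1, talin and doublecortin-like kinase groups, the genes below 0 are motors and tubulins, and the dashed line marks the median of all genes (1.19).

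Among the 63 motors 50 were higher in ALS (79.4%, compared to 86.5% of all genes) and 13 lower, and the median difference was 0.95, compared to 1.19. With the two-sided p none of them was up, beside 1.33% of all genes, a share at which fewer than 1 call in 63 would arise. Of the 8 cargo kinesins, 4 were higher and 4 lower in ALS, with 6 values above 0 in ALS libraries and 5 in controls. *Kif5b*, a heavy chain of conventional kinesin, had 7 split reads in control library 8. *Klc1*, its light chain, had 6 in control library 2, *Kif13b* had 114 in control library 10 and *Kif3b* had 9 in control library 1, and these 4 genes had none in ALS. *Kif5c*, the neuronal heavy chain, had 6 split reads in ALS library 1. With the 6 genes of cytoplasmic dynein 1 and dynactin, 5 of these 14 genes (35.7%) were found in controls only, compared to 12.9% of the 93 genes and 10.9% of all genes. The 14 genes were put together after their values were seen and are short for the list (median 51.6 kb), and no test was applied to them.

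Kinesins with other roles made up the rest of the kinesin signal. The 6 kinesins of cell division (*Kif14*, *Kif18a*, *Kif18b*, *Kif20b*, *Kif23* and *Kif2c*) each had an eccDNA in 1 ALS library and in no control, and 75.0% of all genes were likewise found in ALS libraries only. Of the 4 kinesins of cilia and flagella, *Kif6* (chromosome 17, 295 kb) had 457, 2, 57 and 5 split reads in ALS libraries 2, 4, 6 and 7. The mean was 3.75 ± 4.94 (SD, n = 9) in ALS and 0 in controls, with an exact permutation p of 0.0325 (adjusted 0.581) and 0.0650 with the one-sided p doubled. *Kif19a* had 286 and 7 split reads in ALS libraries 6 and 9.

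The cytoplasmic dynein complex was represented by 7 genes. *Dync1i1*, an intermediate chain that binds dynactin, had 2, 12, 1373 and 3 split reads in ALS libraries 1, 2, 3 and 7 and 2 in control library 1. Its difference of 3.08 (standard error 1.66) did not pass (exact permutation p = 0.0759) and was 1.74 without ALS library 3, and with the load of each library as a covariate in limma it turned to -5.53. The heavy chain *Dync1h1*, in which mutations cause motor neuron disease, had 5 split reads in ALS library 3 only. The dynactin subunit *Dctn5* had 6 split reads in control library 9 only, equal to those on the antisense gene *Gm15489* that overlaps it. *Dync2h1*, the heavy chain of the ciliary dynein 2, had 436, 34 and 2 split reads in ALS libraries 1, 3 and 7.

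Axonemal dyneins were the motors seen in the most control libraries beside the myosins, 5 of 10. The 14 *Dnah* genes carried 9 of the 34 values above 0 in controls and 25 of 160 in ALS, and without them the ratio of motor and linker genes per library, ALS over control, was 6.00 in place of 5.23. *Dnah3* had 6, 21, 13 and 2 split reads in ALS libraries 1, 2, 6 and 9 and none in controls (difference 3.38, standard error 1.30, exact permutation p = 0.0325, and 0.0650 with the one-sided p doubled). *Dnah7a* and *Dnah7c* were the members with an eccDNA in 2 control libraries each, beside *Myo3b*, *Dst* and *Myo5b*. *Dnah7a*, *Dnah7b* and *Dnah7c* are paralogues on chromosome 1, and reads could be divided between them by mapping, so that their single values are uncertain.

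The 19 myosins spanned the widest range. *Myo5a*, the myosin that carries vesicles and endoplasmic reticulum in neurons, had 3, 1116, 37 and 26 split reads in ALS libraries 2, 3, 5 and 7 and none in controls (difference 4.56, standard error 1.84, exact permutation p = 0.0325, and 0.0650 with the one-sided p doubled), and with load as a covariate it turned to -0.57. *Myo3b*, a myosin of sensory hair cells and photoreceptors, had 14, 3, 6, 2, 9 and 6 split reads in ALS libraries 1, 2, 3, 5, 7 and 8, and 10 and 2 in control libraries 1 and 3. Its difference of 2.85 (standard error 1.28, exact permutation p = 0.0430) was 1.56 with equal totals per library (p = 0.264, same exact test) and -2.54 with load as a covariate. *Myo5b*, the epithelial relative of *Myo5a*, showed the most negative difference of the 93 genes, -1.73, from 421 split reads in control library 4 and 2 in control library 5 (exact permutation p = 0.474), and the difference was -0.53 without control library 4. *Myo1d* held the largest value of all, 2542 split reads in ALS library 1, beside 47 in ALS library 7 and 64 in control library 2.

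The 6 genes of tubulins and the gamma-tubulin complex held 5 values above 0 in ALS and 3 in controls, and the 3 stathmin genes held 5 in ALS and 0 in controls. *Nefm*, the medium neurofilament, had 6 split reads in ALS library 3 only. *Stmn2*, a regulator of microtubules in growing axons whose transcript is misspliced when TDP-43 is lost in human ALS, had 15, 10 and 2 split reads in ALS libraries 1, 4 and 8 and none in controls (difference 3.05, standard error 1.46, exact permutation p = 0.0867). *Tuba1c* had 195 split reads in ALS library 6 only, and *Tubg1*, the gamma-tubulin of microtubule nucleation, had 105 in control library 9 and 2 in ALS library 3.

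Split reads were concentrated in few values. Of the 12389 split reads on these genes in ALS libraries, 7471 (60.3%) lay in 5 values above 1000, those of *Myo1d* in library 1, *Macf1* in library 4 and *Dync1i1*, *Epb41l3* and *Myo5a* in library 3. *Myo1d* alone held 78.7% of the split reads on these genes in its library and *Macf1* held 76.1%. At the other end, 66 of the 160 ALS values above 0 (41.2%) had fewer than 5 split reads. The 3 genes that were up had an eccDNA in 5 to 7 ALS libraries, mostly with few split reads each.

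The recurrent genes were long genes. The 12 genes with an eccDNA in 4 or more ALS libraries (12.9%, compared to 5.91% of all genes) spanned 153 to 578 kb, with a median of 319 kb, while the 59 with an eccDNA in 0 or 1 ALS library had a median of 63.5 kb. The 93 genes had a median length of 117 kb, compared to 49.3 kb for all genes placed. Within length classes, the mean number of ALS libraries per gene was 0.826 against 0.942 for all genes up to 50 kb, 1.32 against 1.25 at 50 to 100 kb, 1.58 against 1.60 at 100 to 200 kb and 2.80 against 2.74 at 200 to 500 kb. Above 500 kb it was 4.00 for 2 motor and linker genes, 0 of them up, against 5.07 for all genes, of which 24.1% were up. All 3 genes that were up were 200 to 500 kb long, 3 of 25 (12%), beside 5.39% of all genes of that length. Across the 93 genes, length and the number of ALS libraries had a Spearman correlation of 0.470 (0.519 across 8089 genes), and GC content and the number of ALS libraries one of -0.336 (-0.158). These are descriptions across genes, which share libraries and are not independent replicates. The 12 recurrent genes had a median GC content of 42.5%, compared to 46.3% in the 59 sparse ones, and repeats covered 24.5% and 24.1% of them.

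**Figure D5:**
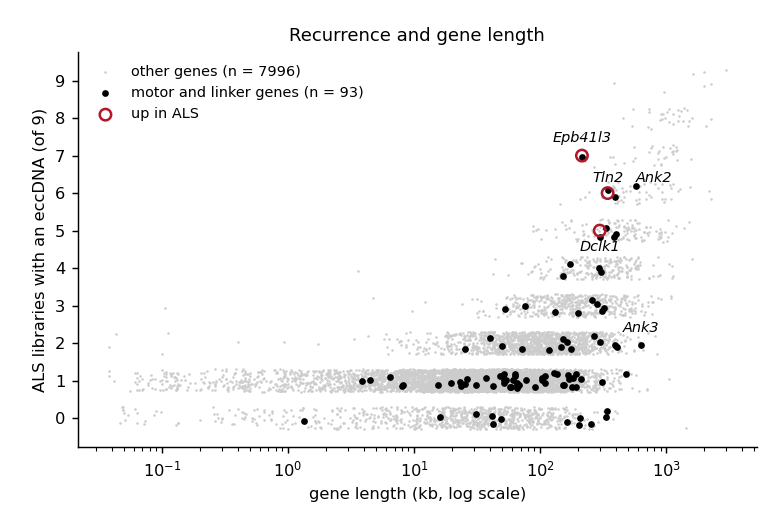
Number of ALS libraries with an eccDNA (vertical axis, of 9, points jittered) against gene length in kb (horizontal axis, log scale) for the 93 motor and linker genes in black over the other 7996 placed genes in grey, with the 3 genes up in ALS circled. The black points follow the grey ones, recurrence rises with length, and *Epb41l3* lies above most genes of its length while *Ank3* lies below.

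Other genes of microtubules and linkers, 60 listed of 124 looked up, were counted for comparison. In this list of microtubule-associated proteins, cargo adaptors, tubulin-modifying enzymes and further linkers, 53 were higher in ALS (88.3%, compared to 86.5% of all genes), 3 were up (1.33% of all genes) and 0 down, 6 had an exact permutation p under 0.05 (3.72% of all genes) and the median difference was 1.27 (1.19 over all genes). The 3 were *Ttll7*, a tubulin polyglutamylase, *Agbl1*, an enzyme that removes glutamates from tubulin, and *Mtus2*, a protein that binds microtubule tips. *Ttll7* had an eccDNA in 5 ALS libraries and 0 controls, *Agbl1* in 8 and 1, and *Mtus2* in 7 and 1. Of the microtubule-associated proteins, *Map2*, *Map4* and *Mapt* had an eccDNA in 2 ALS libraries each and *Map6* and *Map7d3* in 1 ALS library each. *Map1b* and *Map7d1* had one in 1 control library each and in no ALS library.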

How the data were processed

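The authors mapped paired reads to mm10 with Circle_Finder, merged eccDNAs within 10 bp, removed those with fewer than 2 split reads, intersected the rest with GENCODE genes (bedtools, per the submitters' processing notes; release not given in the sources used here) and deposited log2 values, log2(PpGC + 1), scaled by gene length but not across libraries. These were used as deposited, in 19 columns, with 0 columns of other samples. Gene lengths came from GENCODE release M21 (92 of 93 genes by name, *Kifbp* by its older symbol). An eccDNA that overlaps several genes counts for each. Libraries of a group shared at most 13.5% of their genes and were counted separately.

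All genes were tested with the Student test named in the study's methods, taken as two-sided since the methods do not give its sides (the methods' t-test), and single genes with exact permutation, both adjusted by Benjamini-Hochberg over 8336 genes. No test was made over the 93 genes together. The list, the roles and the named genes were chosen with earlier results of these data known. The genes named by rule were *Epb41l3*, *Tln2* and *Dclk1*, genes that passed a test, were found in 4 or more ALS libraries, in the most control libraries or with the most negative differences, 19 candidate disease genes and paralogues of these, in all 33 listed. Others are named where a count or role is spelled out, after their values were seen. Alternatives were limma's moderated test, a replicate block, load as covariate, equal totals, no length scaling, a pseudocount of 100, a minimum of 3 samples, presence or absence and leaving out each library. The doubled one-sided exact p, the one-sided Student p and chromosomes 2 to 9 alone were chosen after seeing the data. The Student test was tested on simulated data of 8336 genes. It called 73 of 100 genes with a planted difference of 3, 100 of 100 with 6 and 2 of 8136 unchanged genes. In the deposited data 66.2% of all genes had an eccDNA in a single library. Among the 93 genes, such genes had a Student p of 0.305 (ALS library) or 0.357 (control library) and could not be called. The simulated rates therefore do not apply to them, and whether they hold for genes in few libraries was not tested. Python 3.11.15, NumPy 2.4.6, pandas 2.3.3, SciPy 1.17.1, matplotlib 3.10.9, R 4.3.3 and limma 3.58.1 were used.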

Additional observations from a re-analysis of the deposited data

Results flagged for a closer look

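In each group of 9 or 10 libraries, a library was marked where its gap to the nearest other library exceeded Dixon's 95% critical value for the whole range of the group. For normally distributed values chance marks about 1 in 20 groups, a rate that does not carry over to values that are mostly 0. A group with 1 value above 0 is always marked, and a group with all libraries at 0 never is. Of 66 groups (33 named genes in ALS and in controls), including those at 0 throughout, such as *Epb41l3* in controls, 20 were marked. In 19 of these 20 all other libraries of the group were at 0, so that the mark says only that a single animal carried the eccDNA. All values are log2 PpGC. In ALS these were *Nefm* (9.30), *Dync1h1* (8.41), *Epb41l5* (8.42) and *Dnah7a* (8.02) in library 3, *Kif5c* (7.43) and *Epb41l4a* (5.43) in library 1, *Epb41l4b* (9.33) in library 2, *Dclk2* (6.06) in library 5 and *Sptbn1* (5.74) in library 9. In controls these were *Ank2* (8.53) and *Dync1i1* (4.92) in library 1, *Klc1* (9.09) and *Myo19* (11.62) in library 2, *Sptbn1* (6.32) in library 4, *Kif5b* (9.56) in library 8, *Dctn5* (10.70) and *Tubb4b-ps2* (13.70) in library 9, and *Macf1* (11.16) and *Kif13b* (11.61) in library 10. For *Myo5b*, control library 4 (12.46) stood above control library 5, the only other control library with an eccDNA there. Neither the number nor the share of motor and linker genes was marked in any library.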

How the results depend on the processing

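The 3 genes up in ALS became 4 with limma (1.99% of all genes), 4 with a one-sided p (2.27%), 3 with equal totals (0.72%), 2 with an exact p under 0.01 (0.816%), 2 without length scaling (0.878%), 2 by presence or absence (0.684%), 2 on chromosomes 2 to 9 (1.54%), 0 with a pseudocount of 100 (0.108%) and 0 after either adjustment. Leaving out single libraries gave 2 to 5, beside 85 to 133 of all genes. *Dclk1* was lost without each of ALS libraries 1, 3, 4, 6 and 8, and *Ank2* and *Myo3b* were gained without control library 1 (121 of all genes). The count of genes down was 0 under every setting except load as covariate, where it was 1 beside 2 up (0.84% and 0.408% of all genes). With so few control values above 0, a gene could hardly be called down under the other settings. The count with an exact p under 0.05 was 8, 6 with equal totals (3.06% of all genes), no length scaling (3.62%) or a pseudocount of 100 (3.45%), and 4 with the doubled one-sided p. Without single libraries it was 4 to 7, for which no share over all genes was computed. The median difference of 1.03 was 0.90 with equal totals, 0.35 without length scaling and 0.31 with a pseudocount of 100. These scalings moved the median of all genes by -0.15, -0.84 and -0.80. It was -0.49 for the 93 genes with load as covariate (42 of 93 positive). Without single libraries it was 1.03 to 1.15, and 69 to 79 genes were higher. Over genes in 3 or more libraries it was 2.94, and 23 of 24 were higher in ALS. None of the 93 genes was in 3 or more controls, so each passed this filter only with ALS libraries. The filter itself therefore favours a higher ALS mean. The ratio and share below over these genes have the same limit. The ratio of genes per library (5.23) was 6.39 over genes in 3 or more libraries, 7.78 on chromosomes 2 to 9 and 4.71 to 7.27 without single libraries, with 7.27 without control library 1. The difference in share (-0.01 percentage points) was 0.67 over genes in 3 or more libraries, 0.77 on chromosomes 2 to 9 and -0.17 to 0.17 without single libraries. The cause of these changes was not tested.

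Replicate numbers did not pair the samples, since same-numbered ALS and control libraries correlated between -0.03 and 0.06 over 1276 genes and only 1 ALS library correlated best with its own number. With the replicate number as a block in limma (9 pairs), 3 genes were up (1.08%), with *Macf1* in place of *Dclk1*, 0 were down and the median stayed at 1.03. *Dnah7a* (0.11) and *Sptbn1* (-0.064) turned. The pairs leave out control library 10, and the differences of *Macf1* (5.55), *Dnah7a* and *Sptbn1* equal those without that library and with no block, so these differences are not set by the block, and its part in the calls was not tested.

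With load as covariate, the coefficient of 36 of the 93 genes turned, and among the 33 named genes it did so for *Ank2* (-3.46), *Ank3* (-0.28), *Dnah7c* (-2.17), *Dst* (-3.13), *Dync1h1* (-2.94), *Dync1i1* (-5.53), *Epb41* (-0.82), *Epb41l4a* (-0.71), *Epb41l5* (-2.95), *Kif5c* (-0.97), *Myo3b* (-2.54), *Myo5a* (-0.57) and *Nefm* (-3.25). *Sptbn1*, at 0.01, also turned with equal totals (-0.43), no length scaling (-0.024), a pseudocount of 100 (-0.016) and without single libraries (-0.63 to 0.64), and *Dnah7a*, at -0.36, with a pseudocount of 100 (0.033) and without control libraries 1 or 10 (-1.25 to 0.28 over all libraries). Of the 8 genes with an exact p under 0.05, *Epb41l3*, *Tln2* and *Dclk1* stayed under it without any single library. *Dnah3*, *Kif6*, *Myo3b* and *Myo5a* each exceeded it in 14 of 19 such settings and *Ank2* in 2.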
